A study of Mus musculus with 18 samples.

Results

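Agrp, Npy, Pomc and Cartpt, the genes for the main feeding peptides of the arcuate nucleus, are described here across 18 RNA-seq libraries. They were picked by symbol, with no expression value used in the choice, and are 4 of the 23235 gene symbols in each table. AgRP neurons and POMC neurons lie side by side in the arcuate nucleus of the hypothalamus and read circulating signals such as leptin, insulin and ghrelin. AgRP neurons drive eating through NPY, which acts on Y receptors, and through AgRP, which blocks melanocortin receptors. POMC neurons restrain eating: they cleave the POMC precursor to α-MSH, which activates the same melanocortin receptors, and many of them also make the CART peptide encoded by Cartpt. Estradiol is known to lower food intake in rodents, and its receptor ERα, encoded by Esr1, is made by part of the POMC neurons.

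The libraries were made from total RNA of the arcuate nucleus of ovariectomized female mice, listed as C57/BL, in 6 groups of 3 libraries: KIKO E2, KIKO oil, ERKO E2, ERKO oil, WT E2 and WT oil (n = 3 throughout). E2 mice received estradiol benzoate, 250 ng on day 5 after surgery and 1500 ng on day 6, oil mice received the vehicle, and all were fasted for 1 h and sampled 24 h after the second injection. WT mice have intact ERα, ERKO mice lack it, and KIKO mice, going by the usual meaning of the name, combine a null allele with a knock-in allele whose ERα has lost its binding to estrogen response elements. The series asks which estradiol responses need that binding. Ages and the construction of the alleles are not given in the sources used here, and nothing says whether each library came from its own animal, so the p values measure the spread between libraries, which may be technical.

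Values are FPKM (fragments per kilobase of transcript, scaled by the authors to the fragments of the library), given for libraries 1, 2 and 3 of a group or as mean ± SD. The relative sequencing depth inferred from the authors' confidence bounds ran from 0.728 to 1.503. ERKO E2 3 was the shallowest library and stood apart. Over all genes that averaged 0.5 FPKM or more it correlated with the others at 0.914 to 0.947, against 0.956 to 0.990 among the other 17. Of the genes tested below, 27.5% had their highest and 29.7% their lowest value in it. Log2 changes, correlations and calls that use it are therefore also given without it, except for cell type markers. Esr1 was at 3.27 ± 0.552 FPKM in KIKO E2, 3.65 ± 0.637 in KIKO oil, 1.49 ± 1.13 in ERKO E2, 2.09 ± 0.417 in ERKO oil, 4.86 ± 1.26 in WT E2 and 8.05 ± 3.39 in WT oil. FPKM over the whole gene does not show whether the remaining Esr1 RNA could make receptor.

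All 4 feeding peptide genes were abundant and were measured in all 18 libraries with the authors' status OK. By mean FPKM over the libraries, Pomc held rank 28, Npy rank 33, Cartpt rank 107 and Agrp rank 377 among all symbols. The authors' bounds around a single value were at most 2.14% wide on either side for Pomc, 3.86% for Npy, 4.14% for Cartpt and 7.02% for Agrp. The ranges between libraries were far wider. The highest library held 4.602 times the lowest for Cartpt, 3.78 times for Agrp, 3.12 times for Pomc and 2.67 times for Npy. No exon of another gene overlaps an exon of these 4 in the RefSeq annotation of GRCm38.

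**Figure D1:**
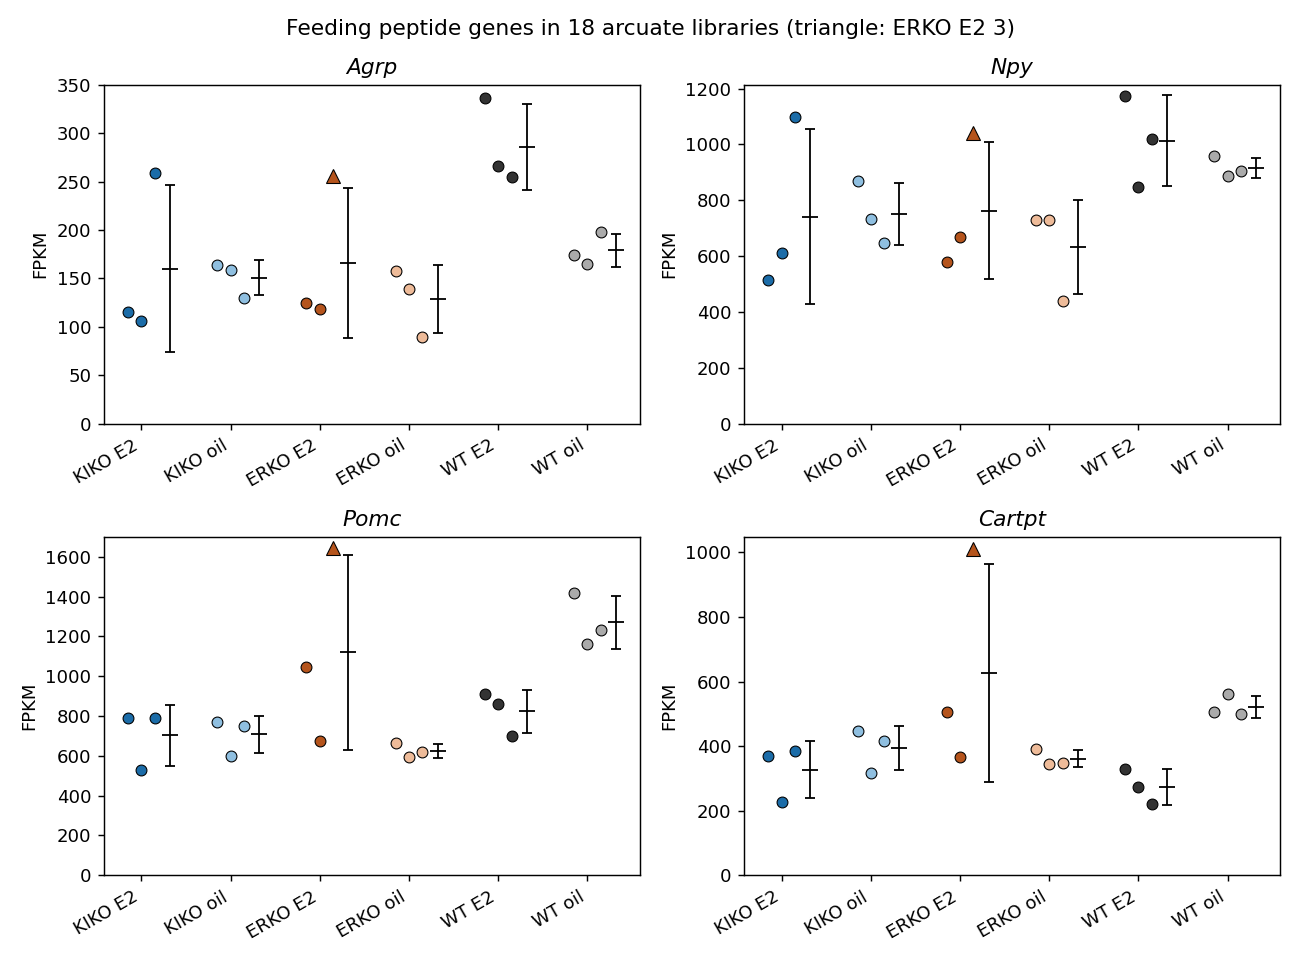
FPKM of Agrp, Npy, Pomc and Cartpt in each of the 18 libraries, with groups along the horizontal axis, 1 panel per gene and FPKM on a linear vertical axis from 0. Points are libraries, bars are group means with SD (n = 3), and the triangle is ERKO E2 3, which holds the highest Pomc (1646 FPKM) and Cartpt (1009 FPKM) of all libraries. Agrp is highest in WT E2 and Cartpt lowest there.

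Agrp, on chromosome 8, encodes the antagonist and inverse agonist of the melanocortin receptors. It was at 115, 106 and 260 FPKM in KIKO E2 and at 164, 158 and 130 FPKM in KIKO oil. ERKO E2 libraries held 125, 118 and 256 FPKM, and ERKO oil libraries 157, 139 and 89.2 FPKM. WT E2 libraries held 337, 266 and 255 FPKM, and WT oil libraries 174, 165 and 198 FPKM. The 3 WT E2 libraries were thus among the highest of all, joined by 1 KIKO E2 and 1 ERKO E2 library at about the level of the lowest WT E2 library. The group means were 160 ± 86.2 FPKM in KIKO E2, 151 ± 17.99 in KIKO oil, 166 ± 77.7 in ERKO E2, 128 ± 35.2 in ERKO oil, 286 ± 44.7 in WT E2 and 179 ± 17.5 in WT oil. From high to low the order was WT E2, WT oil, ERKO E2, KIKO E2, KIKO oil and ERKO oil. WT E2 and WT oil did not overlap, and all later neighbours in this order did.

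Npy, on chromosome 6, encodes neuropeptide Y, the other appetite-raising peptide of the AgRP neurons, which is also made by other hypothalamic neurons. KIKO E2 libraries held 513, 610 and 1098 FPKM, and KIKO oil libraries 868, 733 and 647 FPKM. ERKO E2 libraries held 579, 666 and 1042 FPKM, and ERKO oil libraries 728, 730 and 439 FPKM. WT E2 libraries held 1172, 849 and 1020 FPKM, and WT oil libraries 957, 886 and 904 FPKM. As for Agrp, the third libraries of KIKO E2 and ERKO E2 lay far above the other two of their groups, and the third ERKO oil library far below. Means were 740 ± 313 FPKM in KIKO E2, 750 ± 111 in KIKO oil, 763 ± 246 in ERKO E2, 632 ± 167 in ERKO oil, 1014 ± 162 in WT E2 and 915 ± 36.7 in WT oil. The order ran WT E2, WT oil, ERKO E2, KIKO oil, KIKO E2 and ERKO oil, and every pair of neighbours overlapped.

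Pomc, on chromosome 12, encodes the precursor of α-MSH, ACTH and β-endorphin. KIKO E2 libraries held 789, 527 and 793 FPKM, and KIKO oil libraries 770, 601 and 752 FPKM. ERKO E2 libraries held 1044, 675 and 1646 FPKM, and ERKO oil libraries 663, 596 and 618 FPKM. WT E2 libraries held 909, 861 and 701 FPKM, and WT oil libraries 1418, 1162 and 1232 FPKM. WT oil was the high group, and only ERKO E2 3 exceeded it. Means were 703 ± 152 FPKM in KIKO E2, 707 ± 92.9 in KIKO oil, 1122 ± 490 in ERKO E2, 625 ± 34.1 in ERKO oil, 824 ± 109 in WT E2 and 1271 ± 132 in WT oil. The order ran WT oil, ERKO E2, WT E2, KIKO oil, KIKO E2 and ERKO oil, and each pair of neighbours overlapped.

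Cartpt, on chromosome 13, encodes CART, an appetite-lowering peptide of POMC neurons in rodents that other hypothalamic neurons also make. KIKO E2 libraries held 370, 226 and 386 FPKM, and KIKO oil libraries 448, 318 and 417 FPKM. ERKO E2 libraries held 507, 366 and 1009 FPKM, and ERKO oil libraries 391, 345 and 348 FPKM. WT E2 libraries held 330, 273 and 219 FPKM, and WT oil libraries 506, 560 and 499 FPKM. ERKO E2 3 lay far above every other library. Means were 327 ± 88.1 FPKM in KIKO E2, 394 ± 67.8 in KIKO oil, 627 ± 338 in ERKO E2, 361 ± 25.9 in ERKO oil, 274 ± 55.3 in WT E2 and 522 ± 33.7 in WT oil. The order ran ERKO E2, WT oil, KIKO oil, ERKO oil, KIKO E2 and WT E2, with WT oil and KIKO oil the neighbours without overlap.

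The stretches just before the RefSeq start sites of Pomc and Cartpt are shown because these genes moved together and because the KIKO allele is defined by its failure to bind estrogen response elements. The sequences are from RefSeq on GRCm38.p6, 250 bases each, 5′ to 3′ on the gene's strand, at chr12:3954695-3954944 (plus strand) for Pomc and chr13:99900684-99900933 (minus strand) for Cartpt. Capitals mark 1 arm of an estrogen response element (TGACC, or GGTCA where it lies on the other strand) and, in Cartpt only, a cyclic AMP response element (TGACGTCA).
Pomc: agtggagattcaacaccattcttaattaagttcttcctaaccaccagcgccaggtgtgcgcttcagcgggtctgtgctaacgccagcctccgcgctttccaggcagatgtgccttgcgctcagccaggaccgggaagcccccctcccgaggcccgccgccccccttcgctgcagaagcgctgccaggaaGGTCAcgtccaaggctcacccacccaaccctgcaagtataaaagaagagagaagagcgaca
Cartpt: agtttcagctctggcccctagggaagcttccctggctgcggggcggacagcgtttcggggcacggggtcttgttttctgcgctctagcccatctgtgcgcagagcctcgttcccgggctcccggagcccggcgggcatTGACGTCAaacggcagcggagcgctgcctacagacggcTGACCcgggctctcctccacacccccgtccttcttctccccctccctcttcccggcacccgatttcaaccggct
The full estrogen response element, GGTCA and TGACC 3 bases apart, was in neither, nor in the corresponding Npy stretch, also when 1 mismatch was allowed and both strands were searched. The search took in windows of 300 bases, which hold the 250 bases before the start site and a short stretch after it. Among 32851 such RefSeq windows, 0.0700% held the full element exactly and 0.877% with up to 1 mismatch. The single arm is common, in 40.5% of windows: it began 61 bases before the Pomc start site and 74 bases before that of Cartpt. The cyclic AMP response element, in 1.79% of windows, began 112 bases before the Cartpt start, and the Npy window held none of these motifs. A match is a run of letters, and these windows leave out more distant elements.

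Differences between groups were tested with limma on log2(FPKM + 1), in 1 fit of all 18 libraries over 14774 genes, all 4 members included. Log2 changes are given ± SE with p values adjusted over all these genes. None of the 48 tests of a member (4 genes in 12 comparisons) reached an adjusted p under 0.05, while 15 had an unadjusted p under 0.05, a share that is set beside that of all genes for each comparison. With ERKO E2 3 left out of the fit, 4 of the 48 passed and 18 had an unadjusted p under 0.05. For that fit no share of all genes at an unadjusted p under 0.05 is at hand, so the count of 18 has no background. For E2 against oil in WT, 116 genes (0.785%) passed with all libraries, where 10.3% had an unadjusted p under 0.05. Without ERKO E2 3, 397 genes (2.69%) passed in that comparison.

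In WT mice all 3 E2 libraries held more Agrp and less Pomc and Cartpt than any oil library, while Npy overlapped, and no difference of the 4 passed the threshold. Agrp was 1.60 times as high in WT E2 as in WT oil (log2 change 0.67 ± 0.33, adjusted p = 0.508), and 9.37% of tested genes were higher without overlap. The Npy change was 0.14 ± 0.28 (adjusted p = 0.952). Pomc stood at 0.649 times its WT oil level (−0.63 ± 0.25, adjusted p = 0.375) and Cartpt at 0.525 times (−0.94 ± 0.29, adjusted p = 0.196), and 6.45% of tested genes were lower without overlap. The Cartpt difference passed without ERKO E2 3, a library of neither group that enters the shared estimate of spread (−0.94 ± 0.20, adjusted p = 0.0169), and also in 2 of the other alternatives. In whole tissue, fewer cells of a type and less RNA per cell cannot be told apart.

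Marker levels of other cells moved with parts of this comparison. Over 4 markers of arcuate KNDy neurons, the kisspeptin cells that estradiol suppresses, the summed level was 571 to 786 FPKM in WT E2 and 1574 to 2143 in WT oil, with all 4 past the threshold and lower. The 7 astrocyte markers summed to 760 to 826 FPKM in WT E2 and 829 to 1018 in WT oil, and the 6 ventromedial markers to 29.7 to 55.1 and 56.9 to 64.7. Taken singly, 3 of the 7 astrocyte markers and 0 of the 6 ventromedial markers were higher with E2. Their median log2 changes were −0.011 and −0.39, and 0 of either list passed by limma. Sums of oligodendrocyte, oligodendrocyte precursor and neuronal markers overlapped between WT E2 and WT oil. Of their single markers 0 of 6, 0 of 4 and 1 of 7 were higher with E2, with median log2 changes of −0.33, −0.10 and −0.12. The precursor marker Olig2 and the neuronal marker Nefm passed as lower. The 13 pituitary markers, checked because the pituitary makes Pomc, spanned 13.2 to 382 FPKM in WT E2 and 14.0 to 388 in WT oil, and the ranges coincided. Gene by gene, 1 of the 9 tested was higher with E2 and 0 passed by limma (0 also when p was left unadjusted), and their median log2 change was −0.87, where that of all genes was 0.011. The 7 markers of corticotropes and melanotropes spanned 49.4 to 63.0 and 52.0 to 67.1 FPKM, and among them Pax7 never exceeded 0.0441 FPKM. Of the 5 tested among them, 1 was higher with E2, 0 passed with 1 at an unadjusted p under 0.05, and the median log2 change was −0.22. The part of any of these marker levels in the peptide results was not tested.

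In KIKO mice none of the 4 genes separated E2 from oil libraries, as 7.41% of tested genes did. The log2 changes were −0.030 ± 0.33 for Agrp, −0.087 ± 0.28 for Npy, −0.025 ± 0.25 for Pomc and −0.29 ± 0.29 for Cartpt, each with an adjusted p of 1.00, where 1 gene (0.00677%) passed and 0.948% had an unadjusted p under 0.05. The 95% intervals were wide, from −0.72 to 0.66 for Agrp and from −0.91 to 0.33 for Cartpt, so a change as large as that of Agrp in WT is just outside the first interval and that of Cartpt just outside the second. KIKO E2 3 held more Agrp than the other KIKO E2 libraries, and without it the Agrp change was −0.44.

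In ERKO mice Pomc and Cartpt had higher means after E2, opposite to WT. Pomc was 1.79 times as high in ERKO E2 as in ERKO oil, without overlap (0.75 ± 0.25, adjusted p = 0.473; 5.39% of tested genes were higher without overlap). Cartpt was 1.74 times as high (0.66 ± 0.29, adjusted p = 0.473), with overlap. Agrp and Npy changed by 0.32 ± 0.33 and 0.26 ± 0.28 (adjusted p = 0.607 and 0.620). Pomc and Cartpt had unadjusted p under 0.05, as 7.23% of genes did. No gene passed in this comparison (0%, with 1068 at an unadjusted p under 0.05). ERKO E2 3 carried much of the gap. Without it the log2 changes were 0.43 for Pomc, 0.26 for Cartpt, −0.041 for Agrp and 0.012 for Npy, with adjusted p = 1.00 for each. On the TPM scale, where every library has the same sum and the median gene stood at −0.21, the Pomc and Cartpt changes were 0.55 and 0.47.

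**Figure D2:**
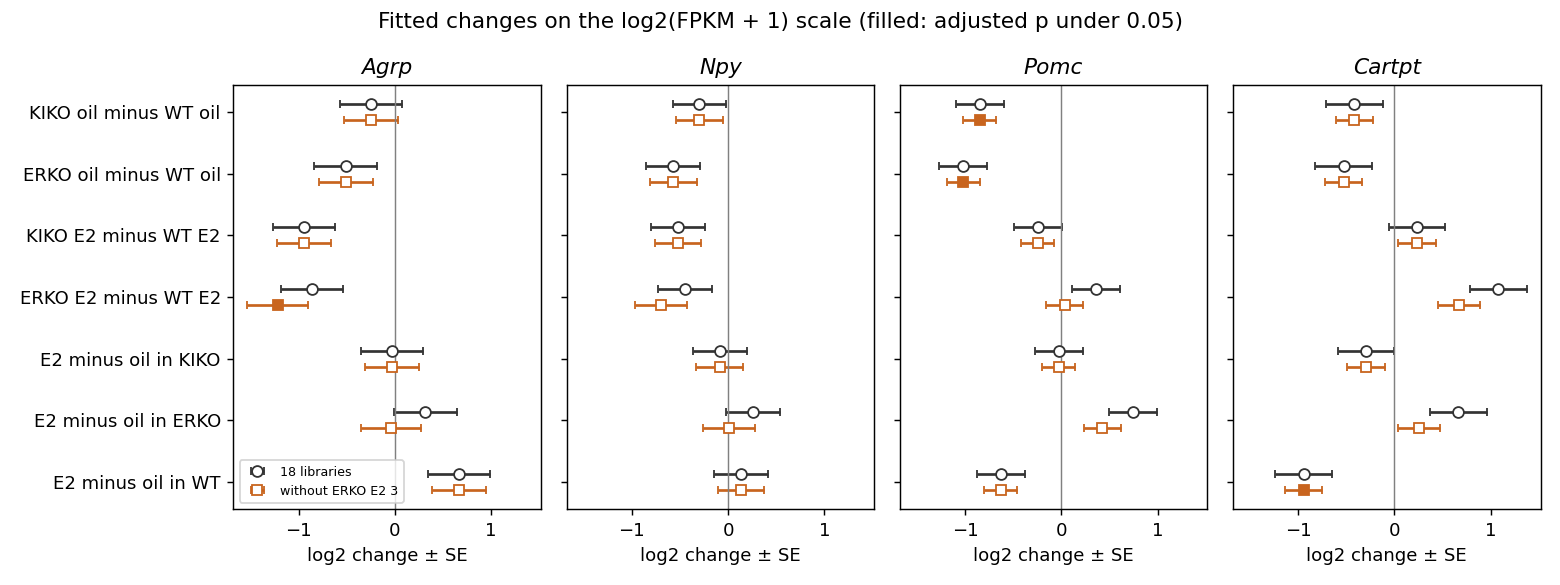
Log2 change ± SE of the limma fit for Agrp, Npy, Pomc and Cartpt in the comparisons of a mutant with WT and of E2 with oil, on log2(FPKM + 1). Open symbols mark adjusted p of 0.05 or more and filled symbols adjusted p under 0.05, with all 18 libraries and without ERKO E2 3. Pomc in ERKO oil against WT oil lies at −1.02 in both fits and is filled only without ERKO E2 3.

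Under oil, all 4 genes were lower in both mutants than in WT, with every KIKO oil and ERKO oil library below every WT oil library, as for 7.22% of tested genes. On the TPM scale Pomc and Cartpt stayed separated from WT oil in both mutants and Npy in ERKO oil, while Agrp overlapped in both and Npy in KIKO oil. Pomc showed the largest difference of the 4. It stood at 0.557 times its WT oil level in KIKO oil (−0.85 ± 0.25, adjusted p = 0.249) and at 0.492 times in ERKO oil (−1.02 ± 0.25, adjusted p = 0.0541). Without ERKO E2 3 in the fit both Pomc differences passed (adjusted p = 0.0287 and 0.00259), as 268 genes (1.81%) and 3319 genes (22.5%) then did, against 2 (0.0135%) and 212 (1.43%) with it. Over 18 alternatives the adjusted p of Pomc ran from 0.0287 to 0.639 for KIKO oil and from 0.00259 to 0.174 for ERKO oil. Cartpt differed by −0.42 ± 0.29 in KIKO oil and −0.53 ± 0.29 in ERKO oil (adjusted p = 0.678 and 0.300). Agrp differed by −0.25 ± 0.33 and −0.51 ± 0.33 (0.830 and 0.366), and Npy by −0.30 ± 0.28 and −0.57 ± 0.28 (0.765 and 0.246). Separation was common here: 9.35% of tested genes were lower without overlap in KIKO oil and 18.4% in ERKO oil, and 10.1% and 21.7% had an unadjusted p under 0.05, among the members Pomc in each. Both differences share the WT oil libraries.

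Several marker sums were lower in the mutants' oil libraries as well, and 1 was higher in KIKO oil. The 7 markers of further arcuate neurons, which include Gal, Sst and Th, summed to 1175 to 1304 FPKM in KIKO oil, 1133 to 1202 in ERKO oil and 1803 to 2258 in WT oil. Sst alone averaged 1073 FPKM over the 18 libraries, so it makes up much of this sum. It was also among the genes that followed Pomc most closely (r = 0.90). How the single markers of this list moved is not given here. Astrocyte markers summed to 767 to 801 FPKM in KIKO oil, 729 to 801 in ERKO oil and 829 to 1018 in WT oil. Oligodendrocyte markers (1245 to 1350, 1156 to 1332 and 1390 to 1874 FPKM) and tanycyte markers (184 to 217, 193 to 215 and 227 to 288 FPKM) were ordered likewise. The 4 oligodendrocyte precursor markers summed to 91.4 to 95.9 FPKM in KIKO oil, 86.6 to 87.9 in ERKO oil and 111 to 133 in WT oil. Of these Olig1 and Olig2 passed as lower in ERKO oil, as did the neuronal marker Nefm, the astrocyte marker Gfap and Pdyn of the dorsomedial list. KNDy markers summed to 926 to 1316 FPKM in ERKO oil and 1574 to 2143 in WT oil, which KIKO oil overlapped. Microglial markers summed to 50.5 to 57.4 FPKM in KIKO oil and 70.7 to 81.4 in WT oil, which ERKO oil overlapped. In KIKO oil 1 of 6 microglial markers was higher. The 7 neuronal markers summed to 1038 to 1059 FPKM in KIKO oil, above the 968 to 1022 of WT oil, and to 957 to 1020 in ERKO oil. Single markers did not all follow their sum. In KIKO oil, 4 of 7 neuronal, 2 of 7 astrocyte and 0 of 7 tanycyte markers were higher than in WT oil. In ERKO oil 3 of 7, 3 of 7 and 2 of 7 were. Of the oligodendrocyte markers 0 of 6 were higher in either mutant, and of the precursor markers 0 of 4 in KIKO oil and 1 of 4 in ERKO oil. The part of these marker levels in the peptide differences was not tested. The corticotrope and melanotrope sums of 61.0 to 69.5 FPKM in KIKO oil and 60.4 to 69.6 in ERKO oil overlapped the WT oil range.

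Under E2 the genes no longer ran in parallel. Agrp was lower in both mutants, at 0.560 times its WT E2 level in KIKO E2 (−0.94 ± 0.33, adjusted p = 0.290) and at 0.582 times in ERKO E2 (−0.86 ± 0.33, adjusted p = 0.295), and it overlapped through the third library of each mutant group. On the TPM scale Agrp and Npy in ERKO E2 lay below WT E2 without overlap. No member separated KIKO E2 from WT E2, as 21.9% of tested genes did. The unadjusted p was under 0.05 for Agrp in both comparisons and for Cartpt in ERKO E2, against 8.98% and 11.5% of all genes. Without ERKO E2 3 the second of these passed (−1.22 ± 0.31, adjusted p = 0.0317; 8.7% of genes passed then and 1.3% with it) and the first did not (adjusted p = 0.0775; 4.03% passed then and 0.948% with it). Npy differed by −0.52 ± 0.28 and −0.44 ± 0.28 (adjusted p = 0.632 and 0.616). Pomc differed by −0.24 ± 0.25 and 0.36 ± 0.25 (0.824 and 0.669). With ERKO E2 3 left out, the differences in ERKO E2 were −0.69 ± 0.27 for Npy and 0.036 ± 0.19 for Pomc (adjusted p = 0.121 and 0.930). Cartpt differed by 0.24 ± 0.29 in KIKO E2 (0.861) and was 2.29 times as high in ERKO E2 as in WT E2, without overlap (1.08 ± 0.29, adjusted p = 0.102; 4.7% of tested genes were higher without overlap). Without ERKO E2 3 that difference was 0.67 ± 0.22 (adjusted p = 0.0668), and without ERKO E2 2, the lowest of its group, it was 1.40 (adjusted p = 0.0192).

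KIKO and ERKO libraries overlapped for all 4 genes, where 28.1% of tested genes separated under oil and 5.5% under E2. Under oil, KIKO minus ERKO ran from 0.11 ± 0.29 for Cartpt to 0.27 ± 0.28 for Npy (adjusted p = 0.998 for all 4; 0% of genes passed, with 340 or 2.3% at an unadjusted p under 0.05). Under E2 it was −0.083 ± 0.33 for Agrp, −0.075 ± 0.28 for Npy, −0.60 ± 0.25 for Pomc and −0.84 ± 0.29 for Cartpt (adjusted p from 0.788 to 0.933; 0.0135% passed and 3.22% had an unadjusted p under 0.05). The values under E2 moved to −0.28 for Pomc, −0.44 for Cartpt, 0.27 for Agrp and 0.17 for Npy without ERKO E2 3, with a change of sign for Agrp and Npy. The 95% interval under oil, −0.36 to 0.70 for Pomc, leaves room for a difference in either direction.

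The difference between genotypes in the E2 response was tested directly. For Pomc the response in ERKO exceeded that in WT by 1.38 ± 0.35 and for Cartpt by 1.61 ± 0.41 (adjusted p = 0.143 and 0.141), with the E2 and oil libraries of Pomc separated in opposite ways, as in 1.5% of tested genes. In this test 0.278% of genes passed, with 12.7% at an unadjusted p under 0.05. Leaving out ERKO E2 3 gave 1.05 ± 0.26 and 1.20 ± 0.29 (adjusted p = 0.0867 and 0.0901), with 0.426% passing. Without ERKO E2 2 they were 1.70 and 1.93 (adjusted p = 0.0185 and 0.0339). The KIKO response exceeded the WT response by 0.60 ± 0.35 for Pomc and 0.65 ± 0.41 for Cartpt (adjusted p = 0.999 for each; 0.135% passed and 4.91% had an unadjusted p under 0.05). For Agrp the response differed from that in WT by −0.70 ± 0.46 in KIKO and −0.35 ± 0.46 in ERKO (adjusted p = 0.999 and 0.723). For Npy the differences were −0.22 ± 0.39 and 0.13 ± 0.39 (0.999 and 0.889). The ERKO values moved to −0.71 ± 0.42 for Agrp and −0.12 ± 0.36 for Npy when ERKO E2 3 was left out (0.507 and 0.928), so that of Agrp was then close to the KIKO value and that of Npy changed sign. KIKO minus ERKO responses ran from −0.96 for Cartpt to −0.35 for Agrp (adjusted p from 0.746 to 0.789; 0% passed, with 323 genes or 2.19% at an unadjusted p under 0.05). With ERKO E2 3 left out they were −0.55 for Cartpt, −0.45 for Pomc, −0.099 for Npy and 0.011 for Agrp (adjusted p = 1.00 for each).

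Ratios between the genes of 1 library do not depend on how that library was scaled, and they are given as descriptions without a test. For none of these ratios is a share of other gene pairs that separate likewise at hand, so their separations between groups have no background. The summed FPKM of Agrp and Npy, divided by that of Pomc and Cartpt, averaged 0.882 ± 0.311 in KIKO E2, 0.828 ± 0.153 in KIKO oil, 0.565 ± 0.164 in ERKO E2, 0.770 ± 0.198 in ERKO oil, 1.20 ± 0.202 in WT E2 and 0.611 ± 0.0244 in WT oil. WT E2 libraries ranged from 0.983 to 1.38 and WT oil libraries from 0.588 to 0.637, with no overlap. KIKO oil libraries, at 0.665 to 0.970, lay above all WT oil libraries as well, while ERKO oil libraries (0.547 to 0.924) overlapped them. ERKO E2 libraries, at 0.454 to 0.754, lay below all WT E2 libraries and ERKO E2 3, at 0.489, was inside that range.

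The Agrp to Npy ratio was nearly the same in 5 groups and higher in the sixth. It averaged 0.283 ± 0.0321 in WT E2, where the libraries spanned 0.250 to 0.313. In WT oil it averaged 0.196 ± 0.0207, and the 4 mutant groups had means from 0.202 in KIKO oil to 0.213 in ERKO E2. Every WT E2 library exceeded all libraries of the other groups. A ratio shows only that the changes of Agrp and Npy were unequal.

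The Pomc to Cartpt ratio separated WT from both mutants. It was 2.17 ± 0.144 in KIKO E2, 1.84 ± 0.215 in ERKO E2 and 3.04 ± 0.244 in WT E2. Under oil it was 1.80 ± 0.0845 in KIKO, 1.73 ± 0.0392 in ERKO and 2.45 ± 0.366 in WT. Under each treatment all mutant libraries lay below all WT libraries, and KIKO and ERKO overlapped. KIKO E2 libraries (2.06 to 2.33) also lay above KIKO oil libraries (1.72 to 1.89), while WT E2 (2.76 to 3.20) overlapped WT oil (2.07 to 2.80).

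**Figure D3:**
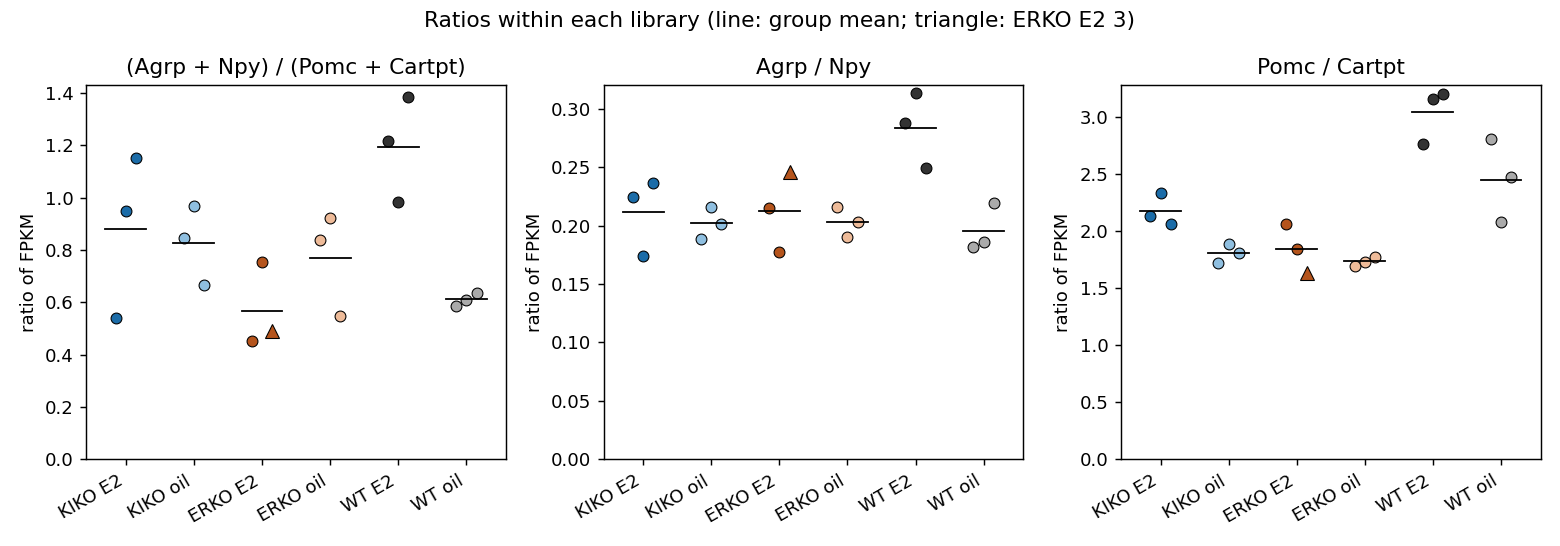
Ratios of FPKM within each library for the 6 groups: Agrp plus Npy over Pomc plus Cartpt, Agrp over Npy, and Pomc over Cartpt, on linear axes. Points are libraries, lines are group means (n = 3) and the triangle is ERKO E2 3. WT E2 stands highest in the Agrp to Npy panel, at 0.283 ± 0.0321, and both WT groups stand highest in the Pomc to Cartpt panel.

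Within groups, the genes of each neuron type deviated together from library to library. After subtraction of the group means of log2(FPKM + 1), Agrp and Npy correlated over the 18 libraries with Pearson's r = 0.93 and Spearman's rho = 0.87 (permutation within groups, two-sided, p = 0.00397 and 0.00588; adjusted over the 6 pairs, p = 0.0119 and 0.0176). Pomc and Cartpt correlated with r = 0.95 and rho = 0.88 (p = 0.00200 and 0.00124; adjusted p = 0.0119 and 0.00744). Leaving out the 2 libraries with the most extreme deviation on the x axis gave r = 0.86 for Agrp and Npy and 0.88 for Pomc and Cartpt. Without ERKO E2 3 the values were 0.90 and 0.89 (adjusted p = 0.0371 and 0.0363). After quantile normalization they fell to 0.77 and 0.73 and no longer passed (adjusted p = 0.0856 for each). The 4 pairs across the neuron types had r from 0.42 for Npy and Pomc to 0.68 for Agrp and Cartpt, with adjusted p from 0.0714 to 0.282. Without ERKO E2 3 these r were 0.12 for Npy and Pomc, 0.24 for Npy and Cartpt, 0.37 for Agrp and Pomc and 0.47 for Agrp and Cartpt (adjusted p from 0.525 to 0.809). All pairs share the libraries' scaling and depth.

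**Figure D4:**
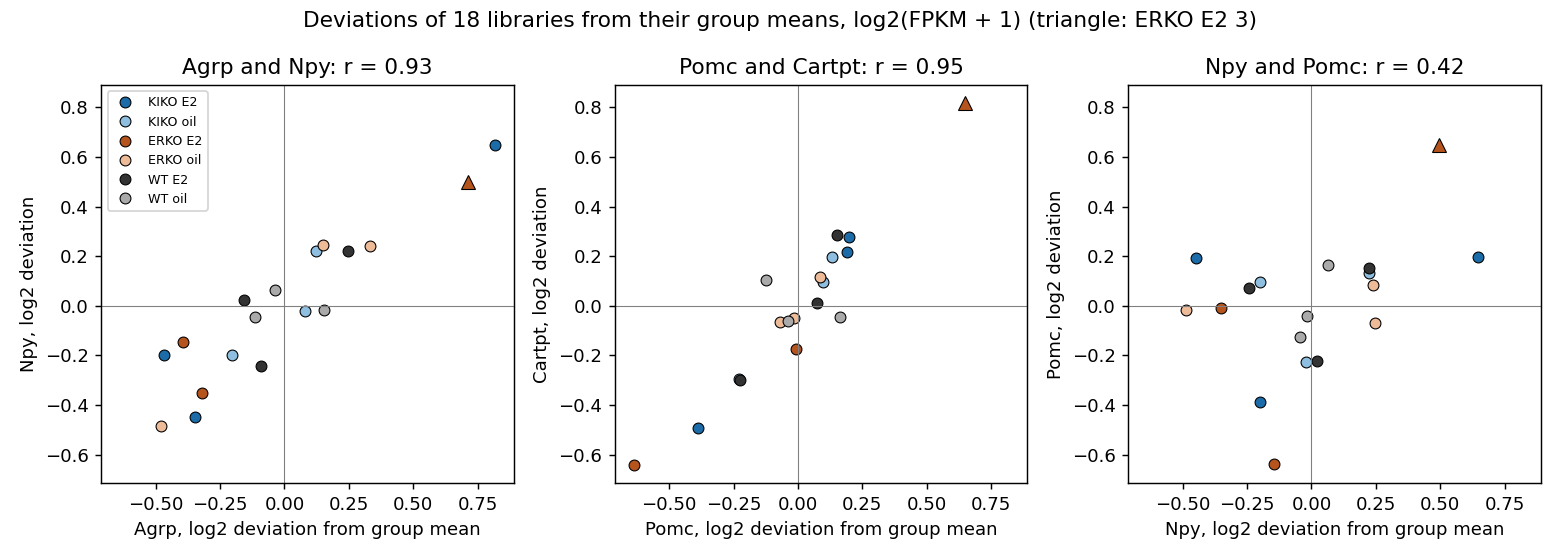
Deviation of each library from its group mean in log2(FPKM + 1), in 3 panels: Agrp and Npy, Pomc and Cartpt, and Npy and Pomc. Each point is 1 of 18 libraries, marked by group, and the triangle is ERKO E2 3. The points follow a rising line in the panels of Agrp and Npy (r = 0.93) and of Pomc and Cartpt (r = 0.95). For Npy and Pomc r is 0.42.

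The genes whose log2(FPKM + 1) followed each member most closely over the 18 libraries were found among 13255 genes, as a description with no test. Npy stood first for Agrp and Agrp first for Npy, at r = 0.92, and each stayed first without ERKO E2 3 (0.91) and on the TPM scale (0.88). After Npy, Agrp was followed by Sep15 (0.89), Ghrh, which encodes growth hormone-releasing hormone (0.88), Pcp4 (0.87) and Ptpro (0.87). After Agrp, Npy was followed by Nnat (0.85), Sep15 (0.82), Rhoc (0.81) and Mrps28 (0.81). Pomc was closest to Flot1 (0.92), Psmb5 (0.92), Sst, which encodes somatostatin (0.90), Camk1 (0.89) and Cotl1 (0.89). Cartpt was closest to Mrps11 (0.89), Foxp2 (0.86), Fxyd7 (0.86), Paqr6 (0.85) and S100a10 (0.85). Pomc and Cartpt were less alike across all libraries, at r = 0.80, where Cartpt held rank 247 for Pomc and Pomc rank 26 for Cartpt. Without ERKO E2 3 only 1 of the 5 closest genes stayed for Agrp, Npy and Cartpt, and 3 for Pomc.

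ERKO E2 3 held more of all 4 peptides than the other two ERKO E2 libraries. Its FPKM was 2.11 times their mean for Agrp, 1.67 times for Npy, 1.91 times for Pomc and 2.31 times for Cartpt. The summed FPKM of all genes was 628541 in it and 418191 to 492135 in the other 17 libraries. Rescaled to the same sum in each library (TPM), the same 4 multiples were 1.44, 1.14, 1.31 and 1.58. On that scale it ranked 6 of 18 for Agrp, 12 for Npy, 3 for Pomc and 1 for Cartpt, so Cartpt was highest there on either scale. Its rise relative to the median of the other libraries exceeded that of 98.5% of tested genes for Cartpt and 95.5% for Pomc, but of 86.7% for Agrp and 80.1% for Npy.

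The same library differed in its markers. The vasopressin gene Avp, made in the supraoptic and paraventricular nuclei, reached 13107 FPKM in it, against 907 to 4581 FPKM in the other 17 libraries, and the 5 markers of those nuclei summed to 20546 against 1770 to 7300 FPKM. Pmch, which encodes melanin-concentrating hormone of the lateral hypothalamus, stood at 74.6 FPKM against at most 29.6 FPKM elsewhere, and the 4 lateral hypothalamic markers at 109 against 28.8 to 50.9 FPKM. Lateral hypothalamic and paraventricular neurons also express Cartpt. The 3 ependymal markers summed to 157 against 42.3 to 77.3 FPKM, the 7 tanycyte markers to 148 against 172 to 288 FPKM and the 7 neuronal markers to 1103 against 840 to 1059 FPKM. The summed FPKM of 7 markers of further arcuate neurons was also highest there, at 2349 against 862 to 2258. The 6 microglial markers summed to 103 against 40.2 to 85.3 FPKM. The sum of the 5 dorsomedial markers was lowest, at 119 against 155 to 391 FPKM. Taken singly, 2 of 7 neuronal, 2 of 7 further arcuate and 2 of 6 microglial markers were highest in this library. So were 3 of 5 supraoptic and paraventricular, 2 of 4 lateral hypothalamic, 2 of 3 ependymal, 0 of 7 tanycyte and 1 of 5 dorsomedial markers. Leptin receptor Lepr was at 0.698 FPKM, the lowest of all libraries. All these levels are FPKM, not rescaled for the higher summed FPKM of this library. Relative to each library's summed FPKM, the neuronal, further arcuate and microglial sums of ERKO E2 3 were not the highest. The part of these levels in the peptide values of ERKO E2 3 was not tested.

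Receptors and partners of the peptides did not pass the test. Of 10 tested genes of a list of melanocortin and NPY receptors and their accessory proteins, 0 passed in each of the 5 comparisons with WT or within WT by limma, with 0 at an unadjusted p under 0.05 for E2 in WT and 4 for ERKO oil against WT oil, where 21.7% of all genes had one. The median log2 change of the list was −0.069 for E2 in WT, where that of all genes was 0.011. Mc3r, a melanocortin receptor made by arcuate neurons, was at 10.3 ± 1.18 FPKM in WT E2 and 9.09 ± 1.61 in WT oil. Npy1r and Npy2r, receptors of NPY, were at 24.3 ± 3.00 and 27.8 ± 2.77 FPKM in WT E2 and 29.8 ± 4.77 and 29.0 ± 5.84 in WT oil. Mrap2, an accessory protein of melanocortin receptors, ranged from 22.1 to 42.5 FPKM, with the highest value in ERKO E2 3.

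In the list of genes that process and package POMC, 2 of 12 fell with E2 in WT and 0 rose. Pcsk1, the convertase that makes the first cuts in POMC, stood at 20.9 ± 5.04 FPKM in WT E2 and 45.0 ± 13.6 in WT oil (−1.06 ± 0.23, adjusted p = 0.0377). Vgf, a secretory granule peptide precursor found in both neuron types, stood at 245 ± 57.5 and 664 ± 67.8 FPKM (−1.46 ± 0.17, adjusted p = 0.000166). Vgf was also lower in ERKO oil, at 295 ± 15.7 FPKM, than in WT oil (−1.16 ± 0.17, adjusted p = 0.0124), the order that Pomc and Cartpt took without passing. Its E2 response in ERKO exceeded that in WT by 1.86 ± 0.23 (adjusted p = 0.00107). All 4 of these calls also passed without ERKO E2 3, and the Vgf change with E2 in WT passed under all 18 alternatives tried. That of Pcsk1 missed in 10 of 18, among them without WT E2 1 or 2 and without WT oil 2 or 3 (adjusted p up to 0.176), and Vgf in ERKO oil missed without ERKO oil 1 or 3 (up to 0.0747). The Vgf response difference missed only after quantile normalization, of 23 alternatives (0.0579). Pcsk2, Cpe and Pam, which make the later cuts and the amidation, changed by 0.065, 0.032 and −0.19 with E2 in WT and did not pass. The list's median log2 change was −0.080.

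Among 16 tested genes of an AgRP neuron list and 19 of a POMC neuron list, the only members that passed for E2 in WT were Ghsr, which rose, and Pcsk1. Ghsr, the ghrelin receptor of AgRP neurons, stood at 12.7 ± 2.26 FPKM in WT E2 and 3.95 ± 2.06 in WT oil (1.53 ± 0.33, adjusted p = 0.0409), and at 3.89 ± 2.30 in ERKO E2 it was lower than in WT E2 (−1.61 ± 0.33, adjusted p = 0.0252). KIKO E2 held 4.0002 ± 0.605 FPKM of Ghsr, a difference from WT E2 that did not pass (−1.44 ± 0.33, adjusted p = 0.0551; 0.00179 without ERKO E2 3). With ERKO E2 3 left out the ERKO difference was −1.14 ± 0.26 (adjusted p = 0.0146), and the change in WT passed as well (0.00116). The WT change missed in 11 of 18 alternatives, among them without any 1 of the WT E2 libraries and without WT oil 1 or 2 (adjusted p up to 0.184), and the ERKO difference in 4 of 17, among them without WT E2 2 or 3 (up to 0.592). Ghsr thus had its highest group mean where Agrp had its own. Median log2 changes for E2 in WT were 0.051 over the AgRP list and −0.14 over the POMC list, beside 0.011 over all genes.

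Of 17 tested receptors of energy hormones, 2 rose with E2 in WT: Ghsr and Cckar, a cholecystokinin receptor. Cckar stood at 8.92 ± 0.284 FPKM in WT E2 and 4.86 ± 0.414 in WT oil (0.76 ± 0.16, adjusted p = 0.0333). It was lower than in WT E2 in both KIKO E2, at 3.45 ± 0.911 FPKM (−1.17 ± 0.16, adjusted p = 0.00112), and ERKO E2, at 4.05 ± 0.869 FPKM (−0.99 ± 0.16, adjusted p = 0.00367). All 3 of these calls stayed without ERKO E2 3 (adjusted p = 0.0141, 0.000365 and 0.00271). The WT change missed in 10 of 17 alternatives, among them without any 1 of its 6 libraries (adjusted p up to 0.134), the ERKO difference with only the groups compared in the fit (0.236), and the KIKO difference in none. Esr1, on the same list, passed as lower for ERKO oil against WT oil (−1.49 ± 0.32, adjusted p = 0.0367; 0.00158 without ERKO E2 3), a call that was lost without any 1 of these 6 libraries (up to 0.160).

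Of 20 transcription factors and other regulators of the 4 genes, 0 passed for E2 in WT by limma, with 4 at an unadjusted p under 0.05, where 10.3% of all genes had one. Foxo1, which in mice represses Pomc and activates Agrp, was lower in ERKO E2, at 13.04 ± 1.92 FPKM, than in WT E2, at 19.4 ± 2.05 FPKM (−0.54 ± 0.12, adjusted p = 0.0349). Nhlh2, a factor that activates Pcsk1 in mice, was lower there as well, at 3.23 ± 0.329 against 5.94 ± 0.438 FPKM (−0.72 ± 0.13, adjusted p = 0.0111). Abcc8, a subunit of the ATP-sensitive potassium channel of POMC neurons, was higher in KIKO E2, at 5.02 ± 0.232 FPKM, than in WT E2, at 2.68 ± 0.237 FPKM (0.71 ± 0.15, adjusted p = 0.0339). These 3 differences passed without ERKO E2 3 (adjusted p = 0.0267, 0.0101 and 0.00133). Foxo1 missed in 7 of 17 alternatives, among them without any 1 of the WT E2 libraries and without ERKO E2 1, Nhlh2 in 2 of 16, among them without WT E2 3, and Abcc8 in 7 of 17, among them without any 1 of its 6 libraries. Fos, an immediate early gene, was higher in ERKO oil, at 25.9 ± 4.82 FPKM, than in WT oil, at 15.1 ± 1.84 FPKM (0.73 ± 0.17, adjusted p = 0.0434; 0.00164 without ERKO E2 3), and missed in 8 of 18 alternatives, among them without any 1 of these 6 libraries (up to 0.162).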

How the data were processed

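Total RNA of the arcuate nucleus was sequenced in 18 libraries, and 1 gene table per library was used. Per the file headers, each deposited table gives the authors' FPKM of a gene, its status and a lower and an upper bound in the same unit. The submitters' processing notes name TopHat2 2.0, Cuffdiff and the build mm10, and the annotation is not given in the sources used here. The listed positions did not match that build: 990 of 20590 (4.81%) starts fell within 1000 bases of the RefSeq start on GRCm38. Genes are therefore placed by chromosome only. Entries sharing a symbol were summed, which gave 23235 symbols from 23699 entries.

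The authors' bounds imply a fragment number for each value, which was whole within 0.02 for 71.5% to 74.4% of genes and lay between 811 and 2411 for Agrp and between 2329 and 8106 for Cartpt. These numbers were used only for relative depth, and the bounds cover counting error only. No count test was run.

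The test was limma (version 3.58.1, R 4.3.3) on log2(FPKM + 1), for genes that averaged 0.5 FPKM or more. Genes of microRNA, snoRNA and snRNA were left out. The fit had 6 group means, 12 residual degrees of freedom and moderated variances with a trend and robust estimation. Two-sided p values were adjusted by Benjamini and Hochberg's method over 14774 genes in each of 12 comparisons, with a threshold of 0.05. The scale makes changes slightly smaller than ratios of FPKM means. Correlations used 100000 permutations within groups. The 5 most similar genes were named for each member, and list members past the threshold for E2 in WT or for a difference of responses. List members that passed in other comparisons (Abcc8, Esr1, Foxo1, Nhlh2 and Fos) and the receptors and convertases given by their levels were chosen after their values were seen. So were the cell type markers named for ERKO oil (Olig1, Olig2, Nefm, Gfap and Pdyn). The 4 genes, the lists and the tests were chosen with earlier results of these data known, so no list is independent evidence.

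Other pseudocounts, filters, scalings and variance models, library weights, fits of fewer groups and a replicate block were tried, and each library was left out in turn. TPM scaling (each library summed to 1000000) was added after seeing the data. The limma step was tested on simulated data. Tables and figures were made with Python 3.11.15, numpy 2.4.6, pandas 2.3.3, scipy 1.17.1 and matplotlib 3.10.9. RefSeq promoter stretches were matched by symbol for 3 of the 4 genes. No protein sequence was used, and 1 receptor gene on the lists is not reported by name.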

Additional observations from a re-analysis of the deposited data

Results flagged for a closer look

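Pomc was picked out because its E2 and oil libraries separated in opposite ways in ERKO and WT. The 3 ERKO E2 libraries (675 to 1646 FPKM) lay above the 3 ERKO oil libraries (596 to 663 FPKM), while the 3 WT E2 libraries (701 to 909 FPKM) lay below the 3 WT oil libraries (1162 to 1418 FPKM). The same pattern was found in 1.5% of tested genes. The difference between the responses was 1.38 on the log2 scale (limma, adjusted p = 0.143) and 1.05 without ERKO E2 3 (adjusted p = 0.0867).

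Cartpt was picked out because ERKO and WT lay in opposite order under E2 and oil. ERKO E2 libraries (366 to 1009 FPKM) lay above WT E2 libraries (219 to 330 FPKM), and ERKO oil libraries (345 to 391 FPKM) lay below WT oil libraries (499 to 560 FPKM). This was found in 0.954% of tested genes. The difference was 1.61 (adjusted p = 0.141) and 1.20 without ERKO E2 3 (adjusted p = 0.0901), so neither passed the test of the difference with or without that library.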

How the results depend on the processing

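Of 916 values of the 48 member tests under alternatives, 857 kept their direction and their side of the threshold, 22 newly passed and 37 changed sign. The sign changes touched 13 tests, with log2 changes of at most 0.36, and 38 tests never passed. The causes were not tested, except that fits of fewer libraries or genes estimate the spread from these alone. TPM scaling moved the median of all genes to −0.21 for E2 in ERKO and to 0.16 for ERKO oil against WT oil. The library weight of ERKO E2 3 was 0.0511, against up to 3.80 elsewhere.

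Cartpt for E2 in WT passed after quantile normalization (−0.91, adjusted p = 0.0171) and with only the groups compared in the fit (−0.94, 0.0227), and Pomc after quantile normalization (−0.55, 0.0459). Pomc in KIKO oil passed with library weights (−0.86, 0.0310). Pomc in ERKO oil passed at a filter of 5 FPKM (−1.02, 0.0475), after quantile normalization (−0.65, 0.0199), as TPM (−0.87, 0.0485), with weights (−0.97, 0.00290) and with only the groups compared (−1.02, 0.00787), as did Cartpt with the last (−0.53, 0.0191). Agrp passed with weights in KIKO E2 against WT E2 (−1.12, 0.0324) and in ERKO E2 against WT E2 (−1.28, 0.0330). Cartpt in ERKO E2 against WT E2 passed after quantile normalization (1.00, 0.00684) and as TPM (1.03, 0.0265), and the Pomc response in ERKO minus WT after quantile normalization (0.91, 0.0441).

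Signs changed with weights for Pomc with E2 in KIKO (0.093), Agrp and Npy with E2 in ERKO (−0.11 and −0.076; Npy −0.082 after quantile normalization) and Pomc in ERKO E2 against WT E2 (−0.0058). KIKO minus ERKO under E2 changed sign after quantile normalization, as TPM and with weights, to 0.092, 0.053 and 0.16 for Agrp and 0.15, 0.061 and 0.037 for Npy, and under oil for Cartpt after quantile normalization (−0.055). The Npy response in ERKO minus WT became −0.28, −0.069 and −0.29 under the same 3 settings, and that in KIKO minus ERKO 0.053 after quantile normalization. After quantile normalization r was 0.77 for Agrp and Npy, 0.73 for Pomc and Cartpt (both no longer passing), −0.16 for Npy and Pomc and −0.15 for Npy and Cartpt.

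With 1 library left out at a time, values ranged as follows. Cartpt with E2 in WT ran from −1.09 to −0.79. E2 in KIKO gave −0.44 to 0.20 for Agrp, −0.41 to 0.14 for Npy and −0.14 to 0.17 for Pomc, and E2 in ERKO −0.041 to 0.51 for Agrp. Pomc ran from −0.91 to −0.73 in KIKO oil and from −1.08 to −0.94 in ERKO oil. ERKO E2 against WT E2 gave −1.22 to −0.66 for Agrp and 0.67 to 1.40 for Cartpt, and KIKO E2 minus ERKO E2 gave −0.49 to 0.27 for Agrp and −0.40 to 0.17 for Npy. Responses ran from −0.55 to 0.0022 for Npy in KIKO minus WT, and in ERKO minus WT from −0.12 to 0.30 for Npy, 1.05 to 1.70 for Pomc and 1.20 to 1.93 for Cartpt. That of Agrp in KIKO minus ERKO ran from −0.75 to 0.011. Log2 differences of the Agrp to Npy ratio ran from −0.031 to 0.19 for E2 in KIKO, −0.053 to 0.18 for E2 in ERKO, −0.0026 to 0.13 for KIKO oil against WT oil, −0.059 to 0.041 for KIKO oil minus ERKO oil and −0.13 to 0.13 for KIKO E2 minus ERKO E2. Those of the ratio of appetite-raising to appetite-lowering genes ran from −0.19 to 0.36 for E2 in KIKO and −0.11 to 0.27 for KIKO oil minus ERKO oil.

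The number of all genes past the threshold depended on the setting: 57 to 397 (116 as reported) for E2 in WT, 0 to 4 (1) in KIKO and 0 to 1 (0) in ERKO. It was 0 to 351 (2) for KIKO oil and 1 to 3319 (212) for ERKO oil against WT oil, 55 to 1030 (140) for KIKO E2 and 13 to 1302 (192) for ERKO E2 against WT E2. KIKO minus ERKO gave 0 to 75 (0) under oil and 0 to 3 (2) under E2. Responses gave 3 to 59 (20), 10 to 104 (41) and 0 to 2 (0) for KIKO minus WT, ERKO minus WT and KIKO minus ERKO. Same-numbered libraries did not deviate together (11 of 45 pairs above r = 0.1, 6 of 18 libraries closest to their own number), so no pairing by number was seen. Whether such libraries were handled together cannot be told from these values. A replicate block left 103 genes for E2 in WT and 64 for ERKO oil against WT oil, and no call of the 4 genes changed under it. Of the list genes named as changed, Pcsk1, Ghsr and Cckar with E2 in WT, Foxo1 in ERKO E2 and Fos and Esr1 in ERKO oil no longer passed under it. The 14 calls on list genes kept their direction under all alternatives and passed in 175 of 247 values.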
